A study of Mus musculus with 59 samples.

Results

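The 10 genes described here encode the metallothioneins and a set of enzymes that defend cells against oxidative stress: Mt1, Mt2, Hmox1, Nqo1, Gclc, Gclm, Srxn1, Txnrd1, Sod2 and Gpx3. They were chosen by name, and all 10 were found among the 55341 genes of each of the 3 count tables, so that their values could be followed in the brown adipose tissue (BAT) of 59 mice. All mice were male, on the C57BL/6J background and 8 to 12 weeks old. In the thyroid hormone (TH) experiment, wild-type (WT) mice were fed PTU, a drug that blocks TH synthesis and makes mice hypothyroid, and were either left hypothyroid (n = 4) or given TH 3, 6, 12 or 24 h before collection (n = 4 at each time point). The same experiment held 5 BATKO mice on PTU and 5 BATKO mice on PTU taken 24 h after TH. In the temperature experiment, CTRL mice were kept at 30 °C (n = 4) or 4 °C (n = 3), and BATKO mice at 30 °C (n = 5) or 4 °C (n = 4). In the diet experiment, CTRL mice received chow (n = 4) or a high-fat diet (HFD, n = 4), and BATKO mice received chow (n = 2) or HFD (n = 3). The data labels give 24 h beside the cold and a few days beside the diet. These are taken here as the times of exposure, so both were short. Neither the labels nor the methods describe the genetic change in BATKO mice or the genotype of CTRL mice, so no targeted gene could be checked and BATKO is used here as a label only. No source says that the mice came from separate litters or cages, and p-values measure the spread between these mice.

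Metallothioneins are small, cysteine-rich proteins that bind zinc and copper, and their genes are induced by zinc through the factor MTF1, by glucocorticoids and by oxidative stress. The other members act on reactive oxygen species or on the thiol pools that detoxify them. Many of them are classical targets of NRF2 (encoded by Nfe2l2), a factor that KEAP1 holds back until the cell meets electrophiles or oxidants. BAT burns fatty acids in its mitochondria to make heat, a process driven by cold and supported by TH, and mitochondrial respiration is a source of superoxide.

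Promoter sequences of RefSeq (GRCm38.p6) were matched for 8 members, namely Mt1, Mt2, Nqo1, Gclm, Srxn1, Txnrd1, Sod2 and Gpx3. Hmox1 and Gclc had no entry. Each window runs from 250 bases before the start site to 50 bases after it. On both strands, 3 motifs were searched. The first was the metal response element bound by MTF1 (TGCACNC or TGCGCNC), which 25.7% of 32851 promoters hold. The second was the core of the antioxidant response element (ARE, TGACNNNGC), held by 12.4% of promoters. The third was the site of heterodimers of NRF2-type and small MAF factors (TGANTCAGC), held by 1.19% of promoters, which can overlap the ARE core. The promoters of Mt1 and Mt2 are shown because these neighbouring genes did not always move together, with capitals marking the metal response elements:
Mt1, chr8:94178839-94179138, plus strand: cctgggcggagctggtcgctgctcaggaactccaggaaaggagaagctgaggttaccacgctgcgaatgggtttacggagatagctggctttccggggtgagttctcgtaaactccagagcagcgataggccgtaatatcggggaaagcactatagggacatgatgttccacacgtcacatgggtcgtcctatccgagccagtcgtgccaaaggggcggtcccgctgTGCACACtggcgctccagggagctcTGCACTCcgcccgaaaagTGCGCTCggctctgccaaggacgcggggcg
Mt2, chr8:94172368-94172667, plus strand: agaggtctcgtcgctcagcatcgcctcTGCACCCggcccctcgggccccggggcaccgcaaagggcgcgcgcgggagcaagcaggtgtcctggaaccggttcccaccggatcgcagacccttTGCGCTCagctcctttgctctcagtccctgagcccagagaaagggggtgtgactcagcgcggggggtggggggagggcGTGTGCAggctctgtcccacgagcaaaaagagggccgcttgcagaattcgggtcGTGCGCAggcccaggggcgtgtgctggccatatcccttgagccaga
The promoter of Mt1 held 3 metal response elements and that of Mt2 held 4. A single stretch of the Mt2 promoter, TGACTCAGC from -79 to -71, matched both the ARE core and the NRF2-type site. Srxn1 and Txnrd1 are shown because both were called higher in WT mice at 24 h after TH and in the cold, with capitals marking ARE cores and NRF2-type sites:
Srxn1, chr2:152105274-152105573, plus strand: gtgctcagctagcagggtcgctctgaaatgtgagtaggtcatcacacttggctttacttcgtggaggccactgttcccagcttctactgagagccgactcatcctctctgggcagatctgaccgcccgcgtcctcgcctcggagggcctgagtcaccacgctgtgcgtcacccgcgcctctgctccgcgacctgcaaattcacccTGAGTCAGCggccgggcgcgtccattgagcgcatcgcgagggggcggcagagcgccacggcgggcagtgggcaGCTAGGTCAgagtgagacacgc
Txnrd1, chr10:82858956-82859255, plus strand, the second of 3 start sites: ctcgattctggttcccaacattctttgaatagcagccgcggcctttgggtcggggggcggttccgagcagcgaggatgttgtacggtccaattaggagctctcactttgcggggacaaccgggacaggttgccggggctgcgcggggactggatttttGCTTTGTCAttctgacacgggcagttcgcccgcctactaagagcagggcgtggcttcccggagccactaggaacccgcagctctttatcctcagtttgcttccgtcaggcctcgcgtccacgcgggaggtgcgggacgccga
The Srxn1 window held TGAGTCAGC from -45 to -37, an ARE core on the minus strand from 29 to 37 and a metal response element on the minus strand from -19 to -13. The Txnrd1 window held an ARE core on the minus strand from -92 to -84, and the windows of its other 2 start sites held none of the 3 motifs. Gclm held 1 ARE core and 3 metal response elements, whereas no motif was found in the windows of Nqo1, Sod2 and Gpx3. These matches describe letters and not binding.

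In the GENCODE annotation of GRCm38, Mt2 (chromosome 8, 94172664 to 94173568, plus strand) lies 5513 bases before Mt1 (94179082 to 94180327, plus strand), with 0 genes between them. Hmox1 (75093621 to 75100589, plus strand) and Nqo1 (107388225 to 107403206, minus strand) are on the same chromosome 8. The other members are protein-coding genes on the plus strand, namely Gclc (chromosome 9, 77754535 to 77794485), Gclm (chromosome 3, 122245557 to 122270732), Srxn1 (chromosome 2, 152105516 to 152111376), Txnrd1 (chromosome 10, 82833951 to 82897712), Sod2 (chromosome 17, 13006846 to 13040063) and Gpx3 (chromosome 11, 54902453 to 54910377). For 3 members the counts are uncertain. The antisense gene Gm45774 covers 432 of the 588 exonic bases of Mt2, and Gm17494 covers 5670 of the 6291 exonic bases of Gclm on the opposite strand. Gclm also contains the pseudogene Gm6061 and shares 287 aligned bases with Ppia at 97.91% identity. A stretch of 3110 aligned bases of Sod2 transcripts matched Rps6ka2 transcripts at 98.23% identity. The strand setting of the counting is not stated, so reads of overlapping genes may have been left out or split, and comparisons between mice are firmer than absolute levels for these genes.

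Levels are given as CPM, the count of a gene scaled to the same normalised library size in every mouse of an experiment. The total count per mouse was 7612059 to 18073627, of which 39.2% to 55.7% came from mitochondrially encoded genes. In all 91 pairs, mice of one group differed by more than sampling noise (lowest chi-square per degree of freedom 7.47), so no mouse of a group was a copy of another mouse of that group. The BAT gene Ucp1 was detected in every mouse (146 to 17186 CPM). Hr, a known TH target, had a log2 fold-change of 3.57 (SE 0.31) in WT mice 3 h after TH and of 4.57 (SE 0.31) at 24 h, but of 0.50 (SE 0.39) in BATKO mice at 24 h. The 6 skeletal muscle markers summed to between 0.639 and 7710 CPM, and their part in the results was not tested. Mouse B27, one of the 4 WT mice taken at 24 h, stood apart for both metallothioneins. In bulk tissue, fewer cells of a type and less RNA per cell cannot be told apart. Scaled by the summed length of annotated exons, Gpx3 had the highest value in hypothyroid WT BAT (497 ± 201 CPM per kb, SD, n = 4), followed by Mt1 (313 ± 88.4), Mt2 (56.4 ± 23.5) and Sod2 (47.4 ± 4.59). The other 6 lay between 4.94 and 12.6 CPM per kb, in the order Srxn1, Gclm, Hmox1, Nqo1, Gclc and Txnrd1. Neighbours in this order overlapped within 1 SD, except Mt1 and Mt2, Sod2 and Srxn1, and Gclc and Txnrd1. For Mt1, the annotated exons form 1 block of 1246 bases that spans the whole gene, against 588 bases in 3 blocks for Mt2. Shorter Mt1 transcripts would give Mt1 a higher value, so the order of Gpx3 and Mt1 is not settled.

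Both metallothioneins had their highest group means in WT BAT 3 h after TH, and 3 of 4 mice at 24 h lay below every mouse without TH. Mt1 was 309.8, 345, 351 and 553 CPM in the mice without TH, and 557, 701, 735 and 757 CPM 3 h after TH. All 4 treated mice lay above all 4 controls, the lowest of them by a narrow margin, and Mt1 was upregulated 1.74-fold (log2 fold-change 0.80, SE 0.24, adjusted p = 0.0418, edgeR's quasi-likelihood test). This was the only one of the 10 members to be called higher at 3 h, where 5.1% of all 13003 genes tested were called higher and 4.09% lower. The call is fragile, since it held in 2 of 8 fits that each left out 1 mouse, with adjusted p up to 0.118. Beside it, 2 of 5 erythroid markers (sums of 199 to 1254 CPM at 3 h and 179.95 to 279.8 CPM without TH) and 2 of 8 brown adipocyte markers (15419 to 20656 CPM and 14368 to 16498 CPM) were called higher at 3 h, and their part was not tested. At 6 h, Mt1 was 423, 469.5, 497 and 509 CPM, and at 12 h it was 386, 429, 429 and 443 CPM, with all 8 mice within the range of the controls. At 24 h, 3 mice had 224, 252 and 277 CPM, below every control, whereas mouse B27 had 651 CPM.

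Mt2 also had its highest mean at 3 h. It was 23.6, 26.4, 29.1 and 53.6 CPM without TH, and 36.2, 51.6, 72.3 and 74.8 CPM at 3 h, so that these groups overlapped (log2 fold-change 0.80, SE 0.54, adjusted p = 0.378). At 6 h it was 21.6, 21.8, 24.5 and 28.2 CPM, which overlapped the controls (log2 fold-change -0.49, SE 0.55, adjusted p = 0.554). At 12 h it was 8.02, 15.3, 18.2 and 19.7 CPM, which was below every control mouse but did not pass the test (log2 fold-change -1.10, SE 0.57, adjusted p = 0.168), although it did in 2 of 7 other settings. At 24 h, 3 mice had 4.00, 5.65 and 10.4 CPM and mouse B27 had 68.2 CPM. With all 4 mice, the log2 fold-change of Mt2 at 24 h was -0.58 (SE 0.56, adjusted p = 0.452). Without B27 it was -2.28 (adjusted p = 5.21e-05), and that of Mt1 changed from -0.15 (adjusted p = 0.666) to -0.63 (adjusted p = 0.00388). B27 was singled out by these same values, so the p-values without it are not independent tests. Of 8 fits that each left out 1 mouse, 1 was called for each gene. Across these fits the log2 fold-change reached -0.24 for Mt2 and 0.06 for Mt1. B27 also had the lowest Nqo1, Gclm and Gclc of its group. Its 8 brown adipocyte markers summed to 19568 CPM, against 12478, 13291 and 14250 CPM in the other 3 mice at 24 h and 14368 to 16498 CPM without TH. The part of these markers in the metallothionein values was not tested.

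The ratio of Mt1 to Mt2 CPM within a mouse was higher at later times after TH in WT mice. It was 10.3 to 13.1 without TH, 9.83 to 15.4 at 3 h, 17.3 to 22.8 at 6 h and 21.8 to 53.5 at 12 h. All 8 mice at 6 and 12 h lay above all 8 mice without TH or at 3 h. At 24 h the ratio was 26.5, 44.6 and 56.0 in 3 mice and 9.55 in B27. In BATKO mice of the same experiment it was 4.24 to 8.64 on PTU and 4.24 to 8.40 after TH. This ratio was examined after the values of both genes had been seen and was given no test.

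**Figure D1:**
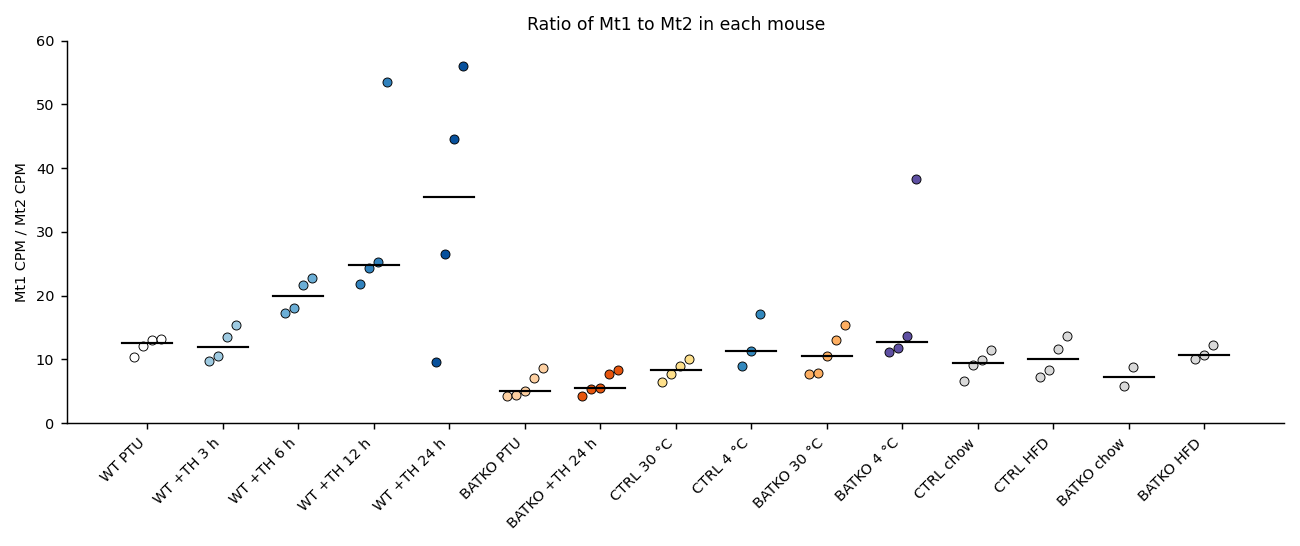
Ratio of Mt1 to Mt2 CPM (y axis, linear scale) in each of the 59 mice (points) by group (x axis), with lines at the group medians. In WT mice of the TH experiment the median went from 12.6 without TH to 35.5 at 24 h, with mouse B27 at 9.55, and 1 BATKO mouse at 4 °C had 38.3.

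Srxn1 and Txnrd1 were upregulated at 24 h, and Txnrd1 already at 12 h. Srxn1 encodes sulfiredoxin, which repairs over-oxidised peroxiredoxins, and Txnrd1 encodes the cytosolic thioredoxin reductase, a selenoprotein that passes electrons from NADPH to thioredoxin. Srxn1 was 25.7, 33.5, 35.8 and 47.0 CPM without TH and 52.3, 53.4, 93.5 and 106 CPM at 24 h. The groups did not overlap, and Srxn1 was upregulated 2.14-fold (log2 fold-change 1.10, SE 0.22, adjusted p = 0.000664). Mice B24 and B26 had the high values, and B27 and B28 lay just above the controls. Between 3 and 12 h, Srxn1 was 26.03 to 50.6 CPM in the 12 treated mice, and its log2 fold-change of 0.88 (SE 0.22) from 12 to 24 h passed the test (adjusted p = 0.0143), except without mouse B26 (adjusted p = 0.0613).

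Txnrd1 was called higher earlier than Srxn1. It was 31.7, 33.2, 37.0 and 38.1 CPM without TH, 31.6 to 39.0 CPM at 3 h and 37.3 to 52.2 CPM at 6 h. At 12 h it was 45.5, 48.4, 49.8 and 55.8 CPM, above every control, and was called higher (log2 fold-change 0.52, SE 0.13, adjusted p = 0.00514). At 24 h it was 49.3, 56.5, 69.3 and 71.3 CPM, a 1.76-fold difference from the controls (log2 fold-change 0.81, SE 0.13, adjusted p = 5.94e-05). Both 24 h calls, for Srxn1 and Txnrd1, held in all 7 other settings and with each of 8 mice left out. They were the 2 members called higher at 24 h, where 17.2% of all genes were called higher and 15.5% lower. In the same comparison, 2 of 8 brown adipocyte markers were called higher and 5 lower (median log2 fold-change -0.92), and their summed level was 12478 to 19568 CPM at 24 h and 14368 to 16498 CPM without TH. At 12 h, 1 of 8 brown adipocyte markers was called higher and 3 lower (median log2 fold-change -0.40), and 1 of 5 endothelial markers was called lower. Endothelial sums were 235 to 298 CPM at 12 h and 307 to 328 CPM without TH. The part of these markers in the Srxn1 and Txnrd1 values was not tested.

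Nqo1 and Gclm were called lower at 6 h, and Nqo1 also at 12 h. Nqo1 encodes a quinone reductase, and Gclm encodes the modifier subunit of the ligase that makes the first intermediate of glutathione. Nqo1 was 9.38, 9.43, 11.6 and 12.1 CPM without TH, 4.12, 5.15, 6.83 and 7.36 CPM at 6 h and 4.70, 4.75, 5.51 and 6.26 CPM at 12 h. All 8 treated mice at these times were below all 4 controls, with log2 fold-changes of -0.87 (SE 0.28, adjusted p = 0.0281) at 6 h and -0.998 (SE 0.29, adjusted p = 0.0139) at 12 h. The 6 h call was lost in 4 of 8 fits that left out 1 mouse, while the 12 h call held in all 8. At 3 h, Nqo1 was 5.88 to 11.7 CPM, which overlapped the controls (log2 fold-change -0.31, SE 0.27, adjusted p = 0.506). At 24 h the mice split into B24 and B26 with 14.0 and 11.9 CPM and B27 and B28 with 4.53 and 6.39 CPM.

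Gclm was 51.7, 70.4, 71.2 and 74.4 CPM without TH and 36.5, 41.7, 43.5 and 44.2 CPM at 6 h. The groups did not overlap, and Gclm was downregulated (log2 fold-change -0.71, SE 0.20, adjusted p = 0.0153), in all 8 fits that left out 1 mouse as well. At 3 h, Gclm was 44.9 to 51.3 CPM, already below every control, but did not pass the test (log2 fold-change -0.48, SE 0.20, adjusted p = 0.139). From 3 to 6 h its log2 fold-change was -0.22 (SE 0.20, adjusted p = 0.656). It was 35.0, 43.1, 51.4 and 53.0 CPM at 12 h, which overlapped the controls and missed the threshold (log2 fold-change -0.54, SE 0.20, adjusted p = 0.0541), although it passed in 5 of 7 other settings. At 24 h it was 55.1, 64.5, 108 and 130.05 CPM, so that it rose by 0.96 (SE 0.20, adjusted p = 0.00477) on the log2 scale from 12 to 24 h. At 24 h it did not differ from the hypothyroid controls by the test (log2 fold-change 0.42, SE 0.20, adjusted p = 0.119). Again B24 and B26 had the high values. Gclc, the catalytic subunit of the same ligase, stayed between 15.9 and 29.5 CPM in all 20 WT mice and was called at no time point. Brown adipocyte markers summed to 17890 to 20749 CPM at 6 h and 14368 to 16498 CPM without TH, with 2 called higher and 1 lower. At 12 h, 1 was called higher and 3 lower. Endothelial markers (1 called lower at 12 h) summed to 235 to 298 CPM at 12 h and 307 to 328 CPM without TH. The part of these markers in the Nqo1 and Gclm values was not tested.

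Thus 0 members were called higher and 2 lower at 6 h, where 12.1% of all genes were called higher and 10.9% lower. At 12 h, 1 member was called higher and 1 lower, where the shares over all genes were 13.6% and 12.1%. Between successive time points, 0 members were called from 3 to 6 h (3 at an unadjusted p under 0.05, 0 by DESeq2), where 2.8% of all genes were called in either direction and 16.4% had an unadjusted p under 0.05. From 6 to 12 h, 0 members were called (0 at an unadjusted p under 0.05, 0 by DESeq2), where 2.95% of all genes were called and 18.996% had such a p. From 12 to 24 h, 2 members were called, where 11.4% of all genes were. The comparisons with PTU share the same 4 control mice, and are not independent of each other.

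**Figure D2:**
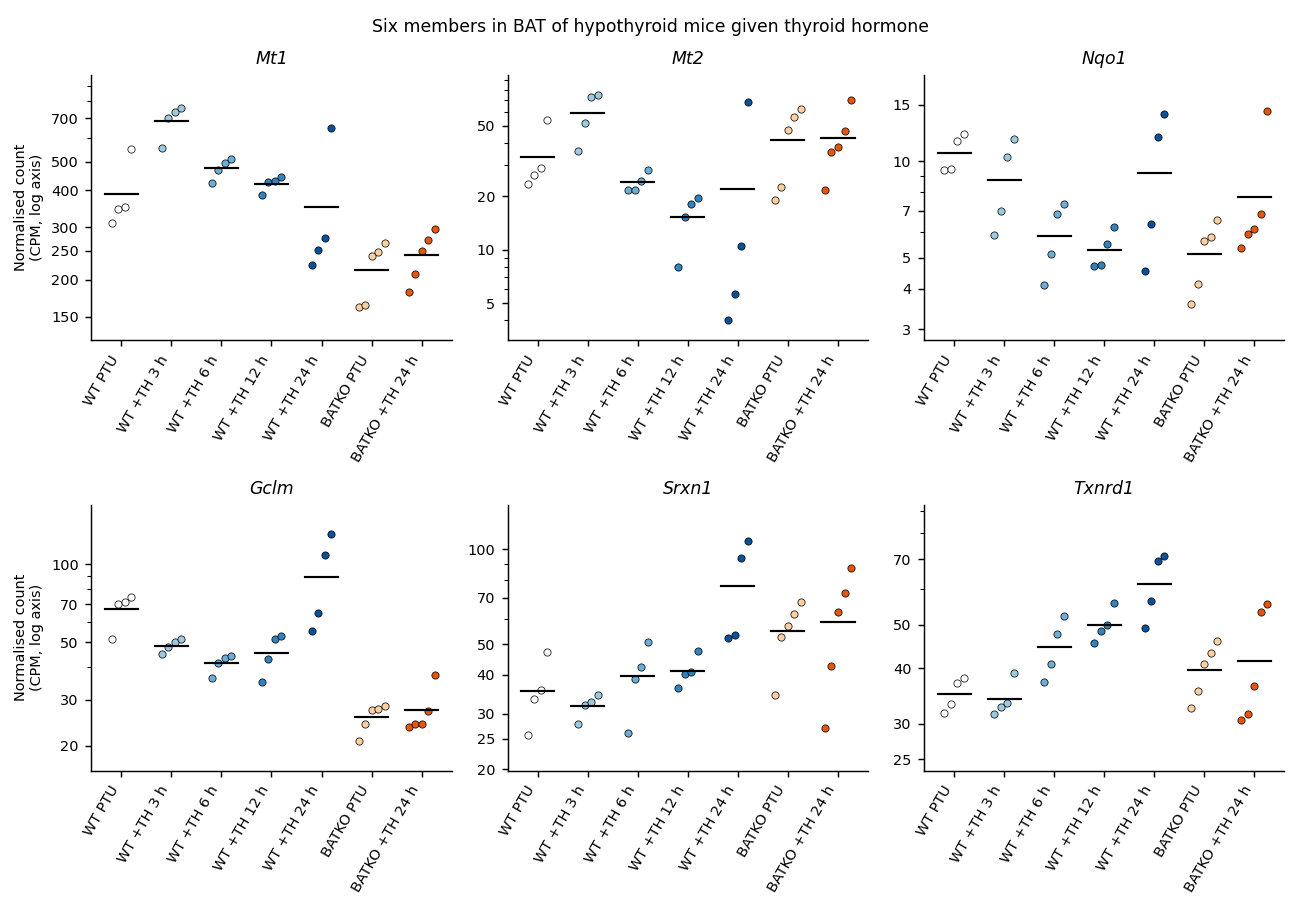
CPM (log axes) of Mt1, Mt2, Nqo1, Gclm, Srxn1 and Txnrd1 in each mouse (points) of the TH experiment, with lines at the group means (n = 4 WT or 5 BATKO mice a group). Among the WT mice, Mt1 and Mt2 had their highest means at 3 h and lay below all controls in 3 of the 4 mice at 24 h, the means of Nqo1 and Gclm were lowest at 12 and 6 h, and Srxn1 and Txnrd1 were above all WT controls at 24 h.

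Hmox1, Sod2 and Gpx3 were called at no time point after TH. Hmox1 encodes haem oxygenase 1, which macrophages use to degrade haem. It was 11.4 to 37.7 CPM in the 20 WT mice, and the highest value, in mouse B11 at 3 h, came with the highest sum of 8 macrophage markers (131 CPM, against 28.1 to 80.9 CPM in the other 19) and of 5 erythroid markers (1254 CPM). Sod2, the mitochondrial superoxide dismutase, was 391 to 630.4 CPM in the 20 WT mice. Gpx3, the secreted glutathione peroxidase, was 587, 685, 930.4 and 1404 CPM without TH and 1208, 1331, 1776 and 2216 CPM at 3 h. These overlapped (log2 fold-change 0.83, SE 0.28, adjusted p = 0.07).

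In BATKO mice, 0 of 10 members were called 24 h after TH (1 at an unadjusted p under 0.05, 0 by DESeq2), and over all 14178 genes 0% were called higher and 0% lower by edgeR and 4.75% had an unadjusted p under 0.05. Srxn1 was 34.4, 52.8, 57.2, 62.2 and 67.8 CPM on PTU and 27.01, 42.6, 63.2, 72.5 and 87.3 CPM after TH. Txnrd1 was 32.5, 35.6, 40.7, 43.2 and 46.0 CPM on PTU and 30.7, 31.6, 36.6, 53.5 and 55.5 CPM after TH. The groups overlapped for both genes. The difference between the BATKO and the WT responses was -0.74 (SE 0.22, adjusted p = 0.0232) on the log2 scale for Txnrd1, the 1 member whose interaction term passed the test, where 12.3% of all genes passed. For Srxn1 it was -1.01 (SE 0.36, adjusted p = 0.0641). Without mouse B26, the Txnrd1 term had an adjusted p of 0.0536, and in a fit of only these 4 groups one of 0.0611.

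The levels of Hmox1, Gclm, Mt1, Nqo1 and Gclc in BATKO mice on PTU lay outside those of WT mice on PTU. The share of all genes that did so was not computed, so no trait of the members is read from this. Hmox1 was 2.96 to 8.23 CPM in the 10 BATKO mice against 11.4 to 37.7 CPM in the 20 WT mice, and Gclm was 20.8 to 28.4 CPM against 51.7 to 74.4 CPM on PTU alone. On PTU, Mt1 was 162 to 265 CPM in BATKO mice against 309.8 to 553 CPM in WT mice. Nqo1 was 3.59 to 6.55 CPM against 9.38 to 12.1 CPM, and Gclc was 13.5 to 20.4 CPM against 21.1 to 29.5 CPM. The other members overlapped, and Mt2 on PTU was 18.9 to 62.5 CPM in BATKO mice, a range that covered that of the WT mice. On PTU, the brown adipocyte markers summed to 9913 to 11935 CPM in BATKO mice against 14368 to 16498 CPM in WT mice. The endothelial markers summed to 396 to 449 CPM against 307 to 328 CPM, and the part of these markers was not tested. Neither the labels nor the methods say whether mice of both genotypes were handled together. Genotype and handling therefore cannot be told apart, in these levels or in the TH responses above, and no test was made of the levels.

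Cold exposure moved most of the members in CTRL mice, with 6 of 10 upregulated and 1 downregulated at 4 °C against 30 °C, where 26.5% of 13267 genes were called higher and 22.6% lower. The median log2 fold-change was 0.89 over the members and -0.01 over all genes tested. In BATKO mice, 5 were upregulated and 1 downregulated, where 21.4% of all genes were called higher and 18.9% lower, and the median log2 fold-change was 0.17 over the members and -0.02 over all genes. CTRL and BATKO mice were compared within the same fit of 16 mice. The summed level of 8 brown adipocyte markers, Ucp1 among them, was 25245 to 28787 CPM in CTRL mice at 4 °C and 5819 to 7235 CPM at 30 °C. The sum of 5 erythroid markers (3 called higher) was 766 to 1711 CPM at 4 °C against 177 to 333 CPM in CTRL mice. The sum of 5 fibroblast markers (3 called lower) was 276 to 292 CPM against 396 to 547 CPM. The sum of 8 macrophage markers (2 called lower) was 62.3 to 73.4 CPM against 76.5 to 134 CPM. In BATKO mice the brown adipocyte sum was 16794 to 25531 CPM at 4 °C and 5798 to 7024 CPM at 30 °C, and the erythroid sum was 771 to 1111 CPM at 4 °C and 182 to 494 CPM at 30 °C. Their fibroblast sum (1 called lower) was 298 to 584 CPM at 4 °C and 331 to 430 CPM at 30 °C. Their macrophage sum (2 called higher and 1 lower) was 70.6 to 104 CPM at 4 °C and 60.9 to 83.2 CPM at 30 °C. The part of these in the results was not tested.

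Srxn1 had the largest change among the members in CTRL mice. It was 12.2, 15.3, 15.6 and 16.3 CPM in CTRL mice at 30 °C and 61.9, 72.1 and 81.7 CPM at 4 °C, a 4.84-fold difference (log2 fold-change 2.27, SE 0.16, adjusted p = 5.11e-08). In BATKO mice it was 13.6, 15.5, 17.1, 17.8 and 18.2 CPM at 30 °C and 44.6, 59.5, 60.05 and 69.6 CPM at 4 °C, a 3.55-fold difference (log2 fold-change 1.83, SE 0.14, adjusted p = 2.24e-07). Every mouse in the cold was above every mouse at 30 °C in both genotypes.

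Sod2 and Txnrd1 were also upregulated. Sod2 was 265, 329.8, 349 and 442 CPM in CTRL mice at 30 °C and 1067, 1084 and 1500.4 CPM at 4 °C (log2 fold-change 1.81, SE 0.22, adjusted p = 4.73e-06). BATKO mice had Sod2 levels of 319, 326, 375, 381 and 502 CPM at 30 °C and 553, 763, 889 and 915 CPM at 4 °C (log2 fold-change 1.03, SE 0.19, adjusted p = 0.000407). The 4 BATKO mice in the cold lay above all mice at 30 °C and below all 3 CTRL mice in the cold. Txnrd1 was 41.8, 45.6, 45.7 and 49.7 CPM in CTRL mice at 30 °C and 86.1, 98.4 and 116 CPM at 4 °C (log2 fold-change 1.13, SE 0.16, adjusted p = 3.33e-05). BATKO mice had Txnrd1 levels of 39.8, 55.1, 58.8, 66.2 and 67.1 CPM at 30 °C and 65.7, 70.4, 77.3 and 86.2 CPM at 4 °C, with overlapping groups (log2 fold-change 0.38, SE 0.14, adjusted p = 0.0425). That call was lost in 6 of 9 fits that left out 1 mouse and in 2 of 6 other settings.

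Gclm was called higher in the cold in both genotypes, Nqo1 less firmly so, and Gclc in neither. Gclm was 28.3, 36.8, 38.5 and 39.5 CPM in CTRL mice at 30 °C and 46.7, 58.5 and 61.4 CPM at 4 °C (log2 fold-change 0.63, SE 0.15, adjusted p = 0.00286). In BATKO mice it was 28.3 to 33.9 CPM at 30 °C and 42.3 to 64.2 CPM at 4 °C (log2 fold-change 0.78, SE 0.14, adjusted p = 0.000294). Nqo1 was low, at 0.972 to 2.91 CPM in CTRL mice at 30 °C and 3.32 to 4.74 CPM at 4 °C (log2 fold-change 0.98, SE 0.35, adjusted p = 0.0283), and it was 1.65 to 3.25 CPM at 30 °C and 2.54 to 5.52 CPM at 4 °C in BATKO mice, where the groups overlapped (log2 fold-change 0.79, SE 0.30, adjusted p = 0.0481). Under 5 other settings of the analysis, the Nqo1 call held in 4 in CTRL mice and in 2 in BATKO mice. The Nqo1 calls were lost in 4 of 7 (CTRL) and 7 of 9 (BATKO) fits without 1 mouse, with adjusted p up to 0.119 and 0.193. Gclc was 25.1 to 33.2 CPM in all 16 mice, with a log2 fold-change of 0.03 (SE 0.13, interval -0.22 to 0.27) in CTRL mice.

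Gpx3 was the member that fell. It was 3327, 4193, 5213 and 6600.1 CPM in CTRL mice at 30 °C and 1182, 1445 and 1573 CPM at 4 °C, so that it was downregulated in the cold (log2 fold-change -1.79, SE 0.26, adjusted p = 3.03e-05). In BATKO mice it was 4251, 5149, 5229, 5307 and 5317 CPM at 30 °C and 762, 1030.4, 1401 and 1583 CPM at 4 °C (log2 fold-change -2.08, SE 0.23, adjusted p = 4.24e-06). The groups stood far apart in both genotypes. Hmox1 was 18.7 to 32.6 CPM in all 16 mice, with log2 fold-changes of -0.04 (SE 0.19, adjusted p = 0.861) in CTRL and -0.16 (SE 0.17, adjusted p = 0.463) in BATKO mice.

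**Figure D3:**
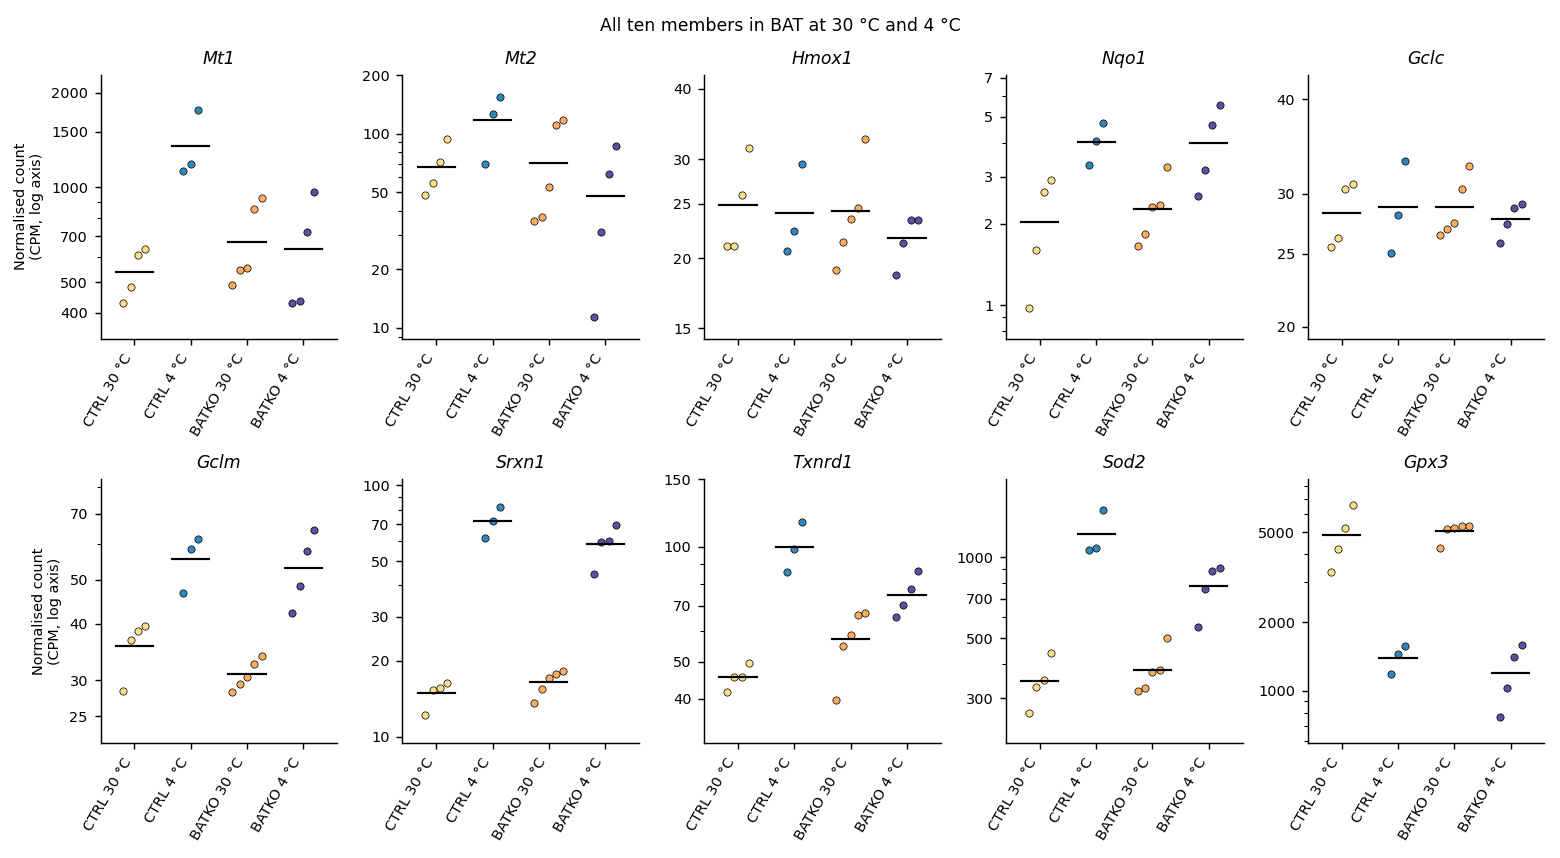
CPM (log axes) of all 10 members in each mouse (points) of the temperature experiment, with lines at the group means (n = 4 and 3 CTRL mice at 30 and 4 °C, 5 and 4 BATKO mice). Srxn1, Sod2 and Gclm were higher and Gpx3 lower at 4 °C with no overlap in both genotypes, whereas Mt1 at 4 °C was 1128 to 1755 CPM in the 3 CTRL mice and 429.9 to 969 CPM in the 4 BATKO mice.

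Mt1 was called higher in the cold in CTRL mice and was not called in BATKO mice, and the difference between these responses did not pass the test. It was 429.8, 485, 609 and 638 CPM in CTRL mice at 30 °C and 1128, 1188 and 1755 CPM at 4 °C, a 2.51-fold difference (log2 fold-change 1.33, SE 0.29, adjusted p = 0.00135) that held with each of 7 mice left out. In BATKO mice it was 489, 546, 555, 854 and 924 CPM at 30 °C and 429.9, 436, 724 and 969 CPM at 4 °C, with overlapping groups (log2 fold-change -0.07, SE 0.26, adjusted p = 0.837, interval -0.58 to 0.43). At 4 °C, all 4 BATKO mice had less Mt1 than all 3 CTRL mice (log2 fold-change -1.09, SE 0.29, adjusted p = 0.0627), which missed the threshold. The difference between the cold responses was -1.40 (SE 0.39, adjusted p = 0.0828) and missed it as well. By DESeq2 the adjusted p values were 0.00545 and 0.0126. Mt2 was 48.4, 55.4, 71.1 and 93.4 CPM in CTRL mice at 30 °C and 69.6, 126 and 155 CPM at 4 °C, with overlap (log2 fold-change 0.80, SE 0.53, adjusted p = 0.223). Its range in BATKO mice was 35.5 to 117 CPM at 30 °C and 11.4 to 86.8 CPM at 4 °C. For Mt2 the difference between genotypes at 4 °C was -1.29 (SE 0.54, adjusted p = 0.23) and that between the cold responses was -1.37 (SE 0.72, adjusted p = 0.32), close to the values of Mt1 and with wider error.

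Between genotypes at the same temperature, 0 members were called. At 4 °C, 4 members had an unadjusted p under 0.05 and DESeq2 called 2, where 0.957% of all genes were called higher and 1.2% lower in BATKO mice and 16.5% had an unadjusted p under 0.05. At 30 °C, 1 member had an unadjusted p under 0.05 and DESeq2 called 0, where 0.00754% of all genes were called higher and 0% lower and 9.11% had such a p. For the difference between the cold responses, 0 members were called, 4 had an unadjusted p under 0.05 and DESeq2 called 2 (Mt1 and Txnrd1), where 1.12% of all genes were called and 18.6% had such a p. For Txnrd1 this difference was -0.75 (SE 0.22, adjusted p = 0.0886). For Sod2 it was -0.78 (SE 0.29, adjusted p = 0.152), and for Srxn1 it was -0.45 (SE 0.21, adjusted p = 0.267).

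**Figure D4:**
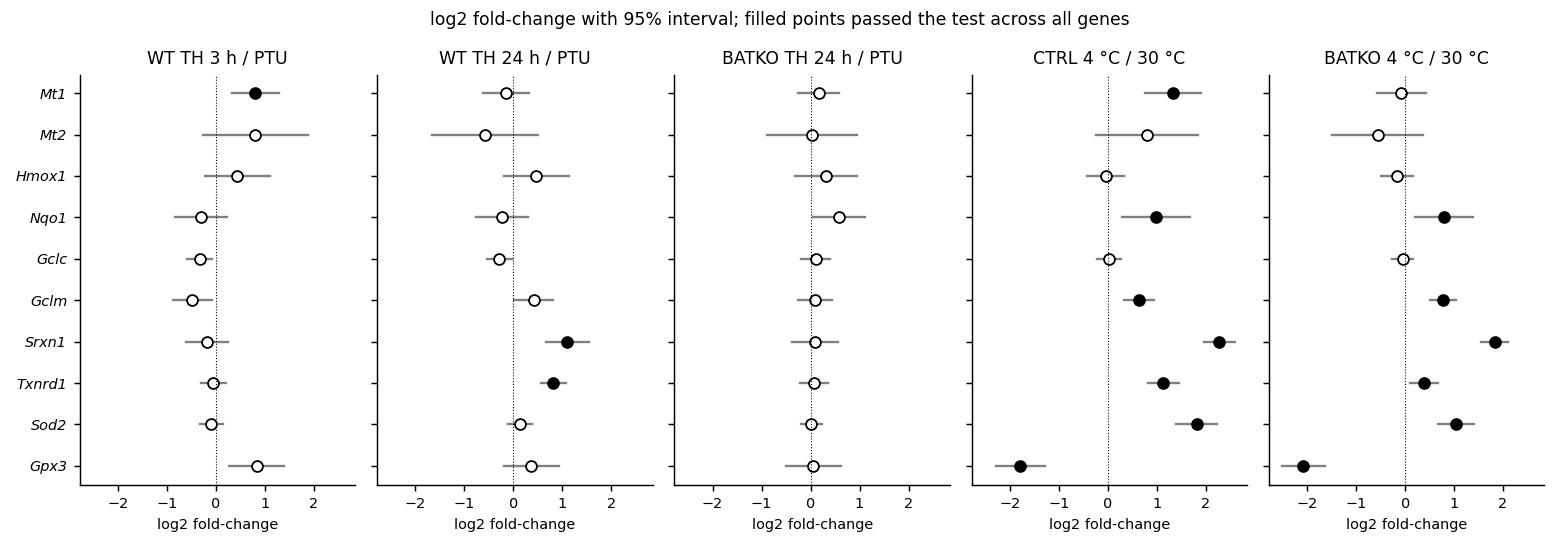
log2 fold-change (x axis) of each member (y axis) with its 95% interval in 5 comparisons, filled where the adjusted p was below 0.05 over all genes tested. Srxn1 and Txnrd1 were filled at 24 h after TH in WT mice and in the cold in both genotypes, and 0 members were filled in BATKO mice after TH.

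On HFD, 0 members were called in any comparison. In CTRL mice, 2 had an unadjusted p under 0.05 and DESeq2 called 0, where 1.89% of 12932 genes were called higher and 2.04% lower and 21.7% had an unadjusted p under 0.05. In BATKO mice, 3 had an unadjusted p under 0.05 and DESeq2 called 0, where 0.0309% were called higher and 0.0387% lower and 15.4% had such a p. Between genotypes, 1 had an unadjusted p under 0.05 on HFD and 1 on chow, DESeq2 called 0 in both, and 0% of all genes were called higher or lower, with 5.34% (HFD) and 7.92% (chow) at such a p. For the difference between the HFD responses, 2 had an unadjusted p under 0.05, DESeq2 called 0, and 0% of all genes were called, with 5.72% at such a p. Srxn1 was 13.5, 17.7, 18.3 and 19.5 CPM in CTRL mice on chow and 18.7, 19.9, 24.7 and 30.9 CPM on HFD (log2 fold-change 0.45, SE 0.16, adjusted p = 0.12). Mt1 was 268, 272, 356 and 400.2 CPM on chow and 189, 221, 245 and 322 CPM on HFD (log2 fold-change -0.41, SE 0.20, adjusted p = 0.258). Both pairs of groups overlapped. In BATKO mice, Mt2 was 38.9 and 45.3 CPM on chow and 15.8, 24.0 and 26.5 CPM on HFD (log2 fold-change -0.94, SE 0.32, adjusted p = 0.214).

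Hmox1 varied more than any other member in the diet experiment. The 3 mice with the most Hmox1 had the 3 highest sums of macrophage markers and also the 3 highest sums of fibroblast markers. In CTRL mice it was 14.4, 15.4, 21.3 and 27.3 CPM on chow, and 17.2, 17.3, 24.0 and 204 CPM on HFD. The sum of the 8 macrophage markers was 250 CPM in the HFD mouse with 204 CPM of Hmox1, and 103 to 113 CPM in the other 3, the lowest of them in the mouse with 24.0 CPM. Fibroblast sums were 913 CPM in the mouse with 204 CPM of Hmox1 and 640 to 751 CPM in the other 3. In the 2 BATKO mice on chow, Hmox1 was 57.6 and 97.6 CPM with marker sums of 168 and 206 CPM, against marker sums of 76.9 to 87.5 CPM in CTRL mice on chow, and with fibroblast sums of 891 and 889 CPM. In BATKO mice on HFD, Hmox1 was 19.2, 26.5 and 29.6 CPM with marker sums of 83.8, 151 and 156 CPM. The log2 fold-change of Hmox1 was 1.75 (SE 0.66, adjusted p = 0.15) on HFD in CTRL mice, and -0.02 without the mouse with 204 CPM. All 8 macrophage markers were detected in each group, and the part of these or of fibroblast markers in the Hmox1 values was not tested. DESeq2 gave no adjusted p for Hmox1 here.

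**Figure D5:**
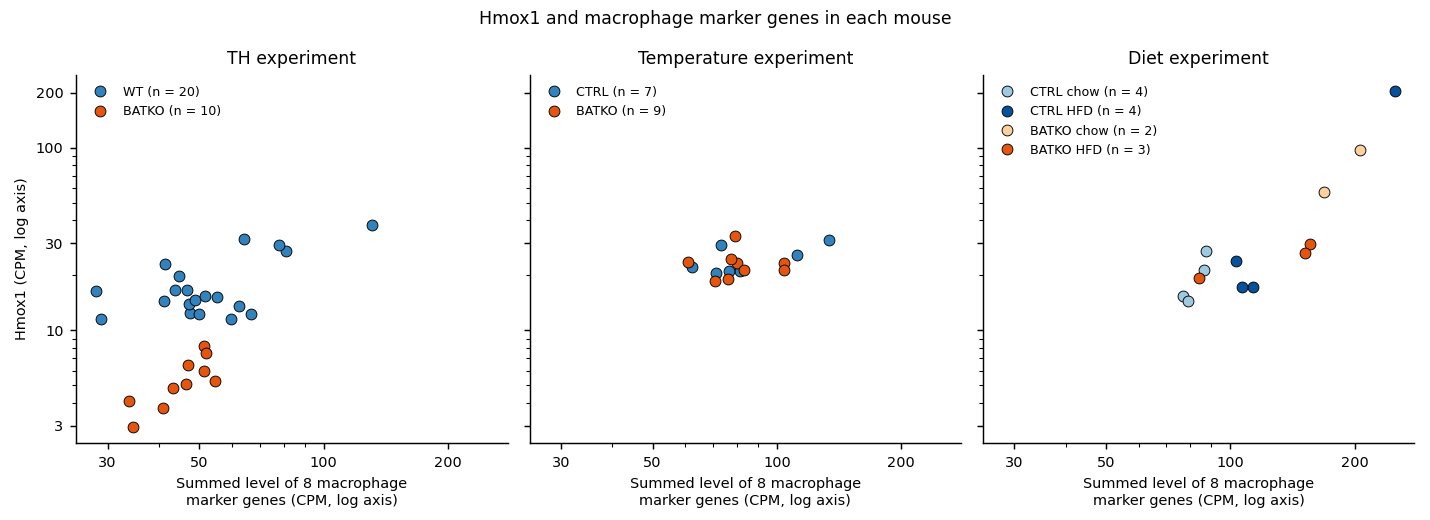
Hmox1 CPM (y axis, log) against the summed CPM of 8 macrophage markers (x axis, log) in each mouse (points) of the 3 experiments, coloured by genotype and diet. In the diet experiment the 3 mice with the most Hmox1 (57.6, 97.6 and 204 CPM) also had the 3 highest marker sums (168, 206 and 250 CPM), and the 10 BATKO mice of the TH experiment lay below all 20 WT mice.

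Genes of the wider glutathione and thioredoxin system were called in both directions, as were genes in general. Of 26 tested genes, 7 were called higher and 7 lower at 24 h after TH in WT mice (median log2 fold-change -0.04). Over all genes, 17.2% were called higher and 15.5% lower in this comparison. Higher were Txn2, the mitochondrial thioredoxin (0.90, SE 0.13, adjusted p = 2.26e-05), and Gss, glutathione synthetase (0.81, SE 0.19, adjusted p = 0.00234). Lower were Gpx8, a peroxidase of the endoplasmic reticulum, from a mean of 518 to 97.0 CPM (-2.42, SE 0.16, adjusted p = 6.25e-10), and Mgst1, a microsomal glutathione transferase, from 1271 to 497 CPM (-1.36, SE 0.11, adjusted p = 7.06e-09). In CTRL mice in the cold, 11 of 26 were called higher and 5 lower (median 0.25), led by Glrx, glutaredoxin (2.11, SE 0.27, adjusted p = 9.22e-06), and Txn2 (1.73, SE 0.22, adjusted p = 9.26e-06) upwards and by the glutathione transferases Gstt1 (-2.29, SE 0.19, adjusted p = 1.97e-07) and Gstm2 (-1.58, SE 0.22, adjusted p = 2.54e-05) downwards. In BATKO mice in the cold, 9 were called higher and 5 lower. The shares over all genes in the cold were 26.5% higher and 22.6% lower in CTRL mice, and 21.4% and 18.9% in BATKO mice. Gpx8 was the gene of this list with the largest fall after TH, and the difference between the BATKO and WT responses was 2.30 (SE 0.34, adjusted p = 6.02e-05) for it.

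Of 22 other genes of the NRF2 pathway, 6 were called higher and 1 lower at 24 h after TH in WT mice (median log2 fold-change 0.24), and 8 were called higher and 1 lower from 12 to 24 h. At 12 h, 1 was called higher and 3 lower. Over all genes, 17.2% were called higher and 15.5% lower at 24 h, and 13.6% and 12.1% at 12 h. From 12 to 24 h, 11.4% were called in either direction. Nfe2l2 itself was the one called higher at 12 h (0.87, SE 0.12, adjusted p = 8.88e-06), when Cat, catalase (-0.97, SE 0.14, adjusted p = 2.02e-05), and Pgd, which makes NADPH in the pentose phosphate pathway (-0.72, SE 0.19, adjusted p = 0.0073), were lower. From 12 to 24 h Pgd rose (1.15, SE 0.19, adjusted p = 0.000709), as did the carbonyl reductase Cbr1 (1.06, SE 0.24, adjusted p = 0.00679), and Nfe2l2 fell (-0.63, SE 0.12, adjusted p = 0.0014). In the cold, 8 were called higher and 4 lower in CTRL mice (median 0.13), and 8 higher and 5 lower in BATKO mice. The pentose phosphate pathway genes Pgd (3.03, SE 0.31, adjusted p = 1.09e-06) and Taldo1 (1.93, SE 0.23, adjusted p = 5.88e-06) had the largest rises in CTRL mice.

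Of 16 tested genes of metal handling, 2 were called higher and 0 lower 3 h after TH in WT mice (median log2 fold-change 0.05), and 5 higher and 1 lower at 24 h. Slc40a1, the iron exporter ferroportin, went from a mean of 7.07 CPM without TH to 69.4 CPM at 3 h (3.27, SE 0.22, adjusted p = 2.66e-09) and 84.0 CPM at 24 h. Its log2 fold-change in BATKO mice was 1.07 (SE 0.43, adjusted p = 0.963), and the difference between the responses was -2.50 (SE 0.62, adjusted p = 0.008). Slc30a1, a zinc exporter that, like the metallothioneins, responds to MTF1, was lower at 24 h (-0.65, SE 0.15, adjusted p = 0.00176). In CTRL mice in the cold, 5 of 15 were called higher and 3 lower. Of 10 glucocorticoid-induced genes, 1 was called higher at 3 h, namely Klf9 (1.75, SE 0.10, adjusted p = 9.2e-10), which is also a TH target, while 3 were called higher and 0 lower at 24 h, and 1 higher and 3 lower in CTRL mice in the cold. Of 10 selenoprotein genes and genes of selenoprotein synthesis, 2 were called higher and 4 lower at 24 h, and 4 higher and 1 lower in CTRL mice in the cold, led by Msrb1 (1.98, SE 0.21, adjusted p = 1.52e-06). These counts stand beside the shares of all genes given above.

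Over the 59 mice, with log2 CPM centred within each experiment, some members varied together. Pearson's r was 0.77 between Srxn1 and Txnrd1, 0.67 between Srxn1 and Sod2, 0.67 between Txnrd1 and Sod2, 0.58 between Nqo1 and Gclm, 0.57 between Gclc and Gclm, 0.52 between Gclm and Sod2, 0.50 between Hmox1 and Gclm and 0.49 between Mt1 and Mt2. It was -0.67 between Sod2 and Gpx3 and -0.65 between Srxn1 and Gpx3. Among 8474 other genes, those most like Mt2 were Fam117a (0.64), Aqp7 (0.61), Cebpa (0.59), Snx1 (0.57) and Gtf2h1 (0.57). Those most like Nqo1 were Fbxo22 (0.59), Rtel1 (0.56), Lpin1 (0.56), Gsr (0.54) and Trim2 (0.53). These values describe mice that share treatments and differ in library depth, and carry no test.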

How the data were processed

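Bulk RNA-seq of BAT was analysed from 3 deposited tables of counts per gene (TH, temperature and diet). Per the labels and the methods, the authors sequenced total RNA libraries on a NextSeq 500, aligned reads to mm10 with Bowtie2 (2.3.2.2 in the submitters' processing notes), removed ambiguously mapped reads and counted reads per gene with htseq-count. The annotation and the strand setting are not given in the sources used here. The deposited counts were used as they stood, and each table was normalised and tested on its own, so levels are not compared between tables. Total counts limit the precision of low genes such as Nqo1.

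Genes with a mean normalised count above 10 were tested with edgeR's quasi-likelihood test (edgeR 4.0.16, TMM, R 4.3.3) and Benjamini-Hochberg adjustment over all genes tested. Genes were called at an adjusted p below 0.05 with no fold threshold. WT time points were fitted on the 20 WT mice, BATKO and interaction terms on all 30 mice of the TH table, and temperature and diet each on all their mice. Standard errors are the log2 fold-change divided by the square root of the F statistic, and 95% intervals are 1.96 SE to each side. Scripts were tested on simulated data. Alternatives were DESeq2 (1.42.0), its size factors, leaving out mitochondrially encoded genes, no filter, a mean above 50, only the groups compared, all 30 mice for the WT comparisons, and each mouse left out in turn. Where that left 1 BATKO mouse on chow, it was assumed to vary like the others. Near copies were transcripts with at least 95% identity over at least 75 bases (blastn 2.17.0).

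All 10 members are named. From the lists of the glutathione and thioredoxin system, other NRF2 pathway genes, metal handling, glucocorticoid-induced genes and selenoprotein genes, up to 2 called genes that rose and 2 that fell most are named for a comparison. The members and lists were chosen with earlier results of these data known. The NRF2-type motif was added after the promoter sequences had been seen.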

Additional observations from a re-analysis of the deposited data

Results flagged for a closer look

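Within groups of 4 or 5 mice, a mouse was picked out where its gap to the nearest other mouse, as a share of the group's range, passed Dixon's 95% critical value. Of 120 groups tested, 10 had such a mouse, where chance would give about 6. For Mt1, WT mouse B4 without TH had 553 CPM against 309.8 to 351 CPM in the other 3 (gap 0.830 of the range). For Mt1 at 24 h after TH, mouse B27 had 651 CPM against 224 to 277 CPM (0.876), and for Mt2 the same mouse had 68.2 CPM against 4.00 to 10.4 CPM (0.900).

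For Hmox1, CTRL mouse 10 on HFD had 204 CPM against 17.2 to 24.0 CPM (0.964), WT mouse B5 without TH had 23.03 CPM against 12.3 to 13.5 CPM (0.888) and WT mouse B11 at 3 h had 37.7 CPM against 13.9 to 16.7 CPM (0.882). BATKO mouse 8 after TH had 14.3 CPM of Nqo1 against 5.38 to 6.87 CPM (0.834) and 37.5 CPM of Gclm against 23.7 to 27.1 CPM (0.750). For Sod2, CTRL mouse 1 on chow had 729.7 CPM against 594 to 606 CPM (0.912). For Gpx3, BATKO mouse 13 at 30 °C had the low value of 4251 CPM against 5149 to 5317 CPM (0.842).

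The response of Txnrd1 to TH at 24 h differed between BATKO and WT mice, with an interaction term of -0.74 (SE 0.22) on the log2 scale and an adjusted p of 0.0232 by edgeR's quasi-likelihood test, as given in the report. The call was lost without mouse B26 (adjusted p = 0.0536) and in a fit of only the groups compared (adjusted p = 0.0611). Genotype and handling cannot be told apart here.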

How the results depend on the processing

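Of 23 called results for single members, 19 passed the threshold under every other setting in which they were tested and 16 with every mouse left out, and 0 of them changed direction. Of 167 uncalled results, 30 passed under at least 1 alternative. Without a filter on the mean count, the members called were 2 (from 1) at 3 h, 4 (from 2) at 12 h, 1 (from 0) from 3 to 6 h, 2 (from 1) for the TH interaction and 1 (from 0) between genotypes at 4 °C, on HFD in CTRL mice, between genotypes on chow and for the diet interaction, and 2 (from 0) on HFD in BATKO mice. In fits of only the groups compared they were 2 at 3 h, 4 at 12 h, 2 from 3 to 6 h, 0 for the TH interaction, 1 on HFD in BATKO mice and 1 between genotypes on chow. DESeq2 called 2 members for the TH interaction, 2 between genotypes at 4 °C and 2 for the cold interaction. The cause of these shifts was not tested.

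With each mouse left out, the members called ranged from 0 to 2 at 3 h, 1 to 4 at 6 h, 2 to 4 at 12 h (4 without B4) and 2 to 5 at 24 h (5 without B27). They ranged from 1 to 5 between 12 and 24 h (1 without B26 and 5 without B27), 0 to 4 for the TH interaction (0 without B26 and 4 without B27), 0 to 1 between genotypes at 4 °C and 0 to 2 for the cold interaction (2 without CTRL mouse 5). Nqo1 in the temperature table could not be tested at a mean above 50. No paired analysis was possible because the groups compared share no mouse, and numbers that recur between genotypes or experiments name different mice. Nqo1 at about 1 to 5 CPM and Mt2 after TH, at 42 counts in 1 mouse, are limited by depth.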

Other observations

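Among the 4 WT mice at 24 h after TH, B24 and B26 had the highest values of Nqo1 (14.0 and 11.9 CPM), Gclm (130.05 and 108 CPM), Srxn1 (93.5 and 106 CPM) and Txnrd1 (69.3 and 71.3 CPM), and the lowest of Mt1, Mt2 and Hmox1 (12.2 and 15.4 CPM). B27 and B28 had the lower values of the first 4 genes and more Hmox1 (27.3 and 29.4 CPM). Their macrophage markers summed to 80.9 and 77.9 CPM, against 49.8 and 51.6 CPM in B24 and B26. BATKO mouse 12 at 4 °C had the lowest Mt2 of the temperature experiment (11.4 CPM) with 436 CPM of Mt1, a ratio of 38.3, where the other 15 mice had ratios of 6.52 to 17.1.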
